A study of Mus musculus with 8 samples.

Results

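The SOCS family comprises 8 genes, Cish and Socs1 to Socs7, which were followed here in subcutaneous fat of diabetic mice. The members were all probe sets whose platform annotation named exactly 1 gene and that gene was one of the 8, which gave 24 probe sets out of 45101 in the table. The study gavaged male mice, 8 weeks old per the labels, for 10 weeks on 5 days per week. The 4 NBC mice (5, 9, 11 and 13) were given niacin-bound chromium (NBC), in which chromium is bound to nicotinic acid, dissolved in water at a dose of 10 mg per kg, and the 4 placebo mice (6, 8, 10 and 14) were given water alone. RNA of every mouse was hybridised to its own Affymetrix Mouse Genome 430 2.0 array, where a gene may have several probe sets. The series title calls the mice diabetic. The strain or allele behind the diabetes, which both groups share, is not given in the sources used here.

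Members of the SOCS family are intracellular proteins with a central SH2 domain, which binds phosphorylated tyrosines, and a carboxy-terminal SOCS box, which recruits a ubiquitin ligase. Cytokines and hormones such as interleukin 6, leptin, growth hormone and interferon gamma activate Janus kinases (JAKs) and the STAT transcription factors. STATs induce Cish, Socs1, Socs2 and Socs3, whose products then damp the same receptors, a classical negative feedback. Socs1 and Socs3 can also bind the insulin receptor and its substrates, and in fat they have been studied in connection with inflammation and insulin resistance. Socs4 to Socs7 are less inducible and have been linked to receptor tyrosine kinases and insulin signalling.

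The starts of 2 feedback members, Socs3 and Cish, are shown. Both sequences printed here were chosen because they hold the letters TTCNNNGAA, the palindromic motif that STAT dimers bind, which reads alike on both strands. They are RefSeq sequences of build GRCm38.p6, written 5′ to 3′ on the gene's strand, and capitals mark the motif. For Socs3 the bases before the start are printed (chr11:117969367-117969616, minus strand), and for Cish a stretch of 30 bases at the start (chr9:107296654-107296683, plus strand).
Socs3: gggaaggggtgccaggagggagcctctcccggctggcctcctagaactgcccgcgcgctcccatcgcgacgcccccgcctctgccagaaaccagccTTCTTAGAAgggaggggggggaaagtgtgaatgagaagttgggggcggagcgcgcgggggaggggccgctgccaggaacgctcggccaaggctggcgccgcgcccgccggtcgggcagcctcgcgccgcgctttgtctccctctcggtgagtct
Cish: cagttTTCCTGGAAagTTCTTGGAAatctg

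The Socs3 match lies between bases -154 and -146 from the start, and the Cish matches between bases 1 and 9 and between bases 12 and 20. Over windows of 250 bases before to 50 after a start, 8.3% of 32851 promoters held at least 1 such match and 0.457% at least 2. RefSeq windows were matched for 4 of the 8 genes, and those of Socs1 and Socs4 held no match. A match describes letters only and was not tested as a binding site.

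The values are MAS5 signals, the linear fluorescence summary of a probe set, and all 8 arrays had a trimmed mean of 1500.01 (2% cut from either tail). Signals of different probe sets are not comparable in level, so each is set only against itself in other mice. Differences are given as NBC minus placebo on a log2(signal + 26.5) scale, which understates the change of dim transcripts. Of the 24 probe sets, 17 passed the filter on dim signals (a mean log2 value no lower than the median probe set's, about 275 units) and were tested among 22519 with limma. Socs1 had no probe set above the filter. The 7 probe sets below it are given as values and entered only an alternative fit without the filter, in which none passed after adjustment.

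The adipocyte markers were bright in both groups (7 of 9 named by the annotation, 0 with a higher mean in NBC). Their summed signal was 441382 to 512449 in NBC and 449336 to 540251 in placebo mice. Skeletal muscle transcripts differed among the arrays: the summed signal of 10 of 10 muscle markers was 149647, 157811 and 140530 in NBC mice 5, 11 and 13 but 16583.8 in NBC mouse 9, while placebo mice had 4329.9 to 22423.7. All 10 had a higher mean in NBC mice. The 3′ to 5′ signal ratio of Gapdh, a sign of RNA integrity, was 1.47, 0.844, 1.28 and 1.11 in NBC mice 5, 9, 11 and 13, and from 0.924 to 1.04 in the placebo group. Lymphocyte markers (6 of 7 named, 3 with a higher mean in NBC) summed to 707.3 to 10409.3 in NBC and 3898.8 to 6521.2 in placebo mice. Macrophage markers (8 of 8 with a higher mean in NBC) summed to 226490 in NBC mouse 13. In NBC mice 5, 9 and 11 the sums were 150712, 168775 and 157331, against 113929 to 165254 in placebo mice. NBC mice 5 and 11 thus lay within the placebo range. Brown adipocyte markers (1 of 4 with a higher mean in NBC) summed to 3738.1 to 4993.2 in NBC and 4167.8 to 8469.8 in placebo mice. Since the samples are whole tissue, fewer cells of a type and less RNA per cell cannot be told apart. No array was a copy of another. Spearman correlations over the tested probe sets were 0.941 to 0.975 within groups and 0.945 to 0.968 between groups, inside the same range. With 4 arrays a group, precision is limited throughout.

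Among the family genes with more than 1 probe set, only Socs3 had all of them higher in NBC mice. Its 3 probe sets differed by 0.55 to 1.23 on the log2 scale, and they read 1 gene in the same mice, so they are not independent. Cish and Socs1, with 1 probe set each, also lay above 0. Probe sets of 1 gene pointed in opposite directions in Socs2, Socs4, Socs5, Socs6 and Socs7, with the widest spread in Socs2. No member passed the threshold after Benjamini-Hochberg adjustment in limma (0 of 17, smallest adjusted p = 0.716), and neither did any other probe set (0 of 22519, 0.0%). At an unadjusted p under 0.05, limma called 4 of the 17 tested members, all higher in NBC, where 6.22% of all probe sets passed (3.28% higher and 2.94% lower). These 4 were the 3 probe sets of Socs3 and 1 of Socs2. The 2 groups of mice did not overlap for 2 of the 17, 1455899_x_at of Socs3 and 1434834_at of Socs7, both higher in NBC, with 3.85% of all probe sets not overlapping (1.79% higher and 2.06% lower). The median log2 difference was 0.122 over the 17 tested members and -0.0103 over all 22519 probe sets. Of the 17, 11 lay above 0 and 6 below, and 48.0% of all probe sets lay above 0. Without the 3 probe sets of Socs3, the median over the other 14 was 0.0599, with 8 above 0 and 6 below.

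**Figure D1:**
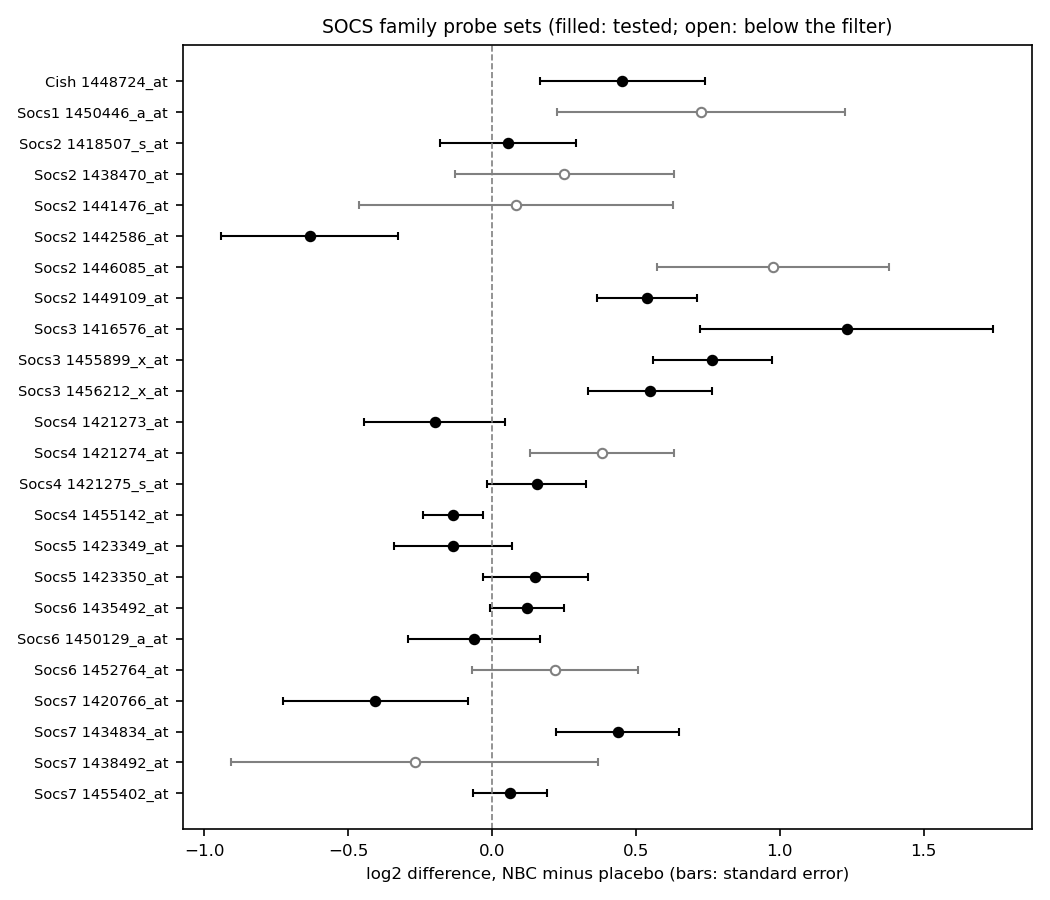
Log2 difference (NBC minus placebo) of each of the 24 SOCS family probe sets on the horizontal axis, with bars of 1 standard error. Filled points were tested and open points lay below the filter; the 3 Socs3 points lie between 0.55 and 1.23, while Socs2 spans -0.63 to 0.98.

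Socs3 encodes the suppressor that binds the gp130, leptin and granulocyte colony-stimulating factor receptors and blocks their JAKs. Its brightest probe set, 1455899_x_at, read 3118.7, 1995.8, 2209.4 and 2006.7 in NBC mice 5, 9, 11 and 13, against 1152.4, 1881.0, 1126.0 and 1307.4 in placebo mice 6, 8, 10 and 14. Every NBC mouse lay above every placebo mouse, and the gap was narrow, between NBC mouse 9 and placebo mouse 8. Means were 2333 ± 533 in the NBC group and 1367 ± 352 in the placebo group (SD, n = 4 each), for a log2 difference of 0.77 (SE 0.207; limma adjusted p = 0.716).

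The second Socs3 probe set, 1456212_x_at, read 2091.8, 1425.0, 1557.0 and 1012.4 in NBC mice 5, 9, 11 and 13, against 946.6, 916.7, 1245.5 and 920.8 in placebo mice 6, 8, 10 and 14. The groups overlapped because placebo mouse 10 lay above NBC mouse 13. Its log2 difference was 0.55 (SE 0.215; limma adjusted p = 0.778), with 1522 ± 445 in NBC and 1007 ± 159 in placebo mice (SD, n = 4 each). The suffix _x_at marks a probe set with probes that may also match other transcripts.

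The third, 1416576_at, carries no such suffix and read 1031.2, 613.9, 905.7 and 594.5 in NBC mice 5, 9, 11 and 13, against 721.0, 547.4, 104.5 and 202.7 in placebo mice 6, 8, 10 and 14. Placebo mouse 6 lay among the NBC values, and placebo mice 10 and 14 lay far below them. The log2 difference was 1.23 (SE 0.510; limma adjusted p = 0.778), with means of 786 ± 217 in NBC and 394 ± 289 in placebo mice (SD, n = 4 each). Among placebo mice the highest signal was 6.9 times the lowest on this probe set, compared with 1.67 times on 1455899_x_at and 1.36 times on 1456212_x_at.

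The Socs3 probe sets thus ordered the placebo mice differently. Placebo mouse 10 was lowest of all 8 mice on 1416576_at and on 1455899_x_at but highest of the placebo mice on 1456212_x_at. In the NBC group they were more alike, with mouse 5 highest and mouse 11 next on all 3. Leaving out placebo mouse 10 gave 0.78 for 1416576_at (limma adjusted p = 0.805), against 1.23 with all mice.

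**Figure D2:**
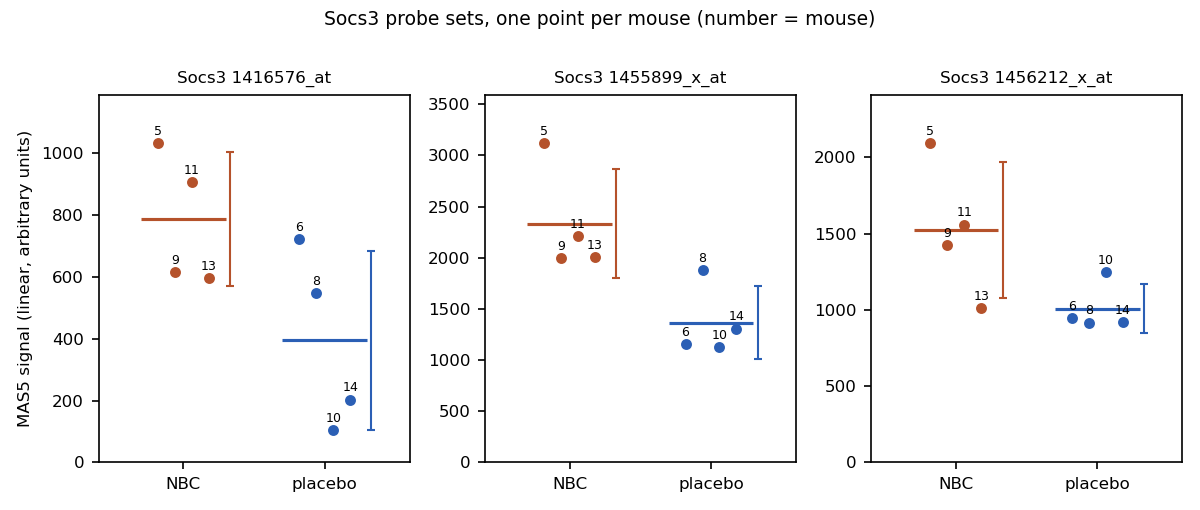
MAS5 signal (linear) of the 3 Socs3 probe sets in each NBC mouse (left) and placebo mouse (right), numbered by mouse, with group means as lines and SD as bars. NBC mice lie at 1995.8 and above on 1455899_x_at, where the placebo mice reach 1881.0, and the groups overlap on the other 2 probe sets.

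The Gapdh 3′ to 5′ ratio was highest in NBC mice 5 and 11, which were also the mice with the highest Socs3 signals on all 3 probe sets, and its part in the Socs3 difference was not tested. NBC mouse 9, with the lowest ratio of the 8 mice and muscle markers within the placebo range, lay above all placebo mice on 1455899_x_at and on 1456212_x_at, where it read 1425.0, and below placebo mouse 6 on 1416576_at. It was the lowest NBC mouse on 1455899_x_at. Without that mouse the log2 difference of 1455899_x_at was 0.83. With any 1 mouse left out it ranged between 0.62 and 0.93 (limma adjusted p 0.286 to 0.974). The macrophage sum was highest in NBC mouse 13, which was the lowest NBC mouse on the other 2 Socs3 probe sets. Immediate early genes, which respond quickly to handling of tissue and include known STAT3 targets, had summed signals of 48365.7 to 72138 in NBC and 44560.2 to 69132.8 in placebo mice (9 of 12 with a higher mean in NBC). The part of muscle, macrophage and immediate early transcripts in the Socs3 values was not tested.

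Socs2 encodes the suppressor of growth hormone signalling, and in mice its loss leads to overgrowth. It was read by 6 probe sets, of which 3 were tested, and these disagreed. Of the 6, only 1449109_at and 1418507_s_at were annotated to a RefSeq transcript. Probe set 1449109_at read 589.7, 487.4, 520.9 and 327.2 in NBC mice 5, 9, 11 and 13, against 314.2, 347.6, 296.2 and 308.5 in placebo mice 6, 8, 10 and 14. NBC mice 5, 9 and 11 lay above all placebo mice, and NBC mouse 13 lay below placebo mouse 8. The log2 difference was 0.54 (SE 0.174; limma adjusted p = 0.730).

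Probe set 1418507_s_at, annotated to the same RefSeq transcript as 1449109_at, read 1180.1, 1088.5, 1354.6 and 591.8 in NBC mice, against 905.9, 1028.2, 1084.0 and 874.1 in placebo mice, in the same order of mice. Here NBC mouse 13 was the lowest of all 8 mice, NBC mice 5, 9 and 11 were the 3 highest, and the log2 difference was 0.056 (SE 0.237; limma adjusted p = 0.976). The suffix _s_at marks probes shared by more than 1 transcript.

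Probe set 1442586_at ran the other way, with 211.6, 160.1, 247.6 and 545.9 in NBC mice 5, 9, 11 and 13, against 357.8, 417.5, 479.2 and 440.8 in placebo mice 6, 8, 10 and 14. NBC mice 5, 9 and 11 were the 3 lowest and NBC mouse 13 the highest of the 8, and the log2 difference was -0.63 (SE 0.307; limma adjusted p = 0.778). Of the 3 dim probe sets, 1446085_at had 359.7, 348.9, 407.8 and 194.5 in NBC mice, against 156.5, 183.8, 56.0 and 266.4 in placebo mice, with a limma adjusted p of 0.919 in the fit without the filter. In that fit limma called 3 of the 24 probe sets at an unadjusted p under 0.05, 1446085_at among them, and 2401 of all 45037. The other 2 ranged from 11.7 to 201.6 in NBC and from 14.0 to 117.8 in placebo mice and overlapped.

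NBC mouse 13 therefore stood apart from the other NBC mice on 4 Socs2 probe sets, low on 3 and high on 1442586_at. Without it the log2 differences were 0.70 for 1449109_at, 0.30 for 1418507_s_at and -0.96 for 1442586_at. None passed after adjustment in limma without it either (smallest adjusted p = 0.742). This mouse had the highest macrophage sum of the 8 (226490, with the next at 168775) and the lowest endothelium sum (12415.2, with the next at 12992.4), while its muscle sum was near those of NBC mice 5 and 11. It also had the lowest neutrophil sum (12007.7, with the next at 15878.8) and the lowest lymphocyte sum (707.3, with the next at 895.9). Its epithelium sum (2151.7) and immediate early gene sum (72138) were the highest. The part of these markers in the Socs2 values was not tested.

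**Figure D3:**
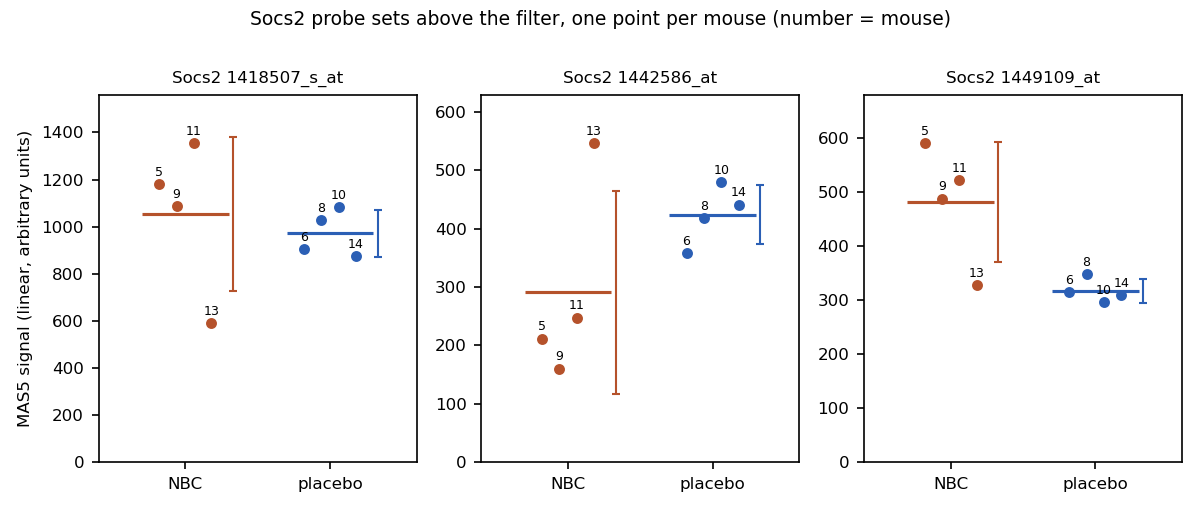
MAS5 signal (linear) of the 3 tested Socs2 probe sets in each NBC mouse (left) and placebo mouse (right), numbered by mouse, with group means as lines and SD as bars. NBC mouse 13 lies at 591.8 and 327.2 on 1418507_s_at and 1449109_at, below the other NBC mice, and at 545.9 on 1442586_at, above them.

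Cish, the founding member, which restrains STAT5 signalling and is induced by it, had 1 probe set, 1448724_at. It read 1251.4, 1183.0, 602.9 and 547.4 in NBC mice 5, 9, 11 and 13, against 798.6, 581.1, 515.1 and 560.0 in placebo mice 6, 8, 10 and 14. NBC mice 5 and 9 lay above all placebo mice, and NBC mice 11 and 13 lay within the placebo range. The log2 difference was 0.45 (SE 0.287; limma adjusted p = 0.814), with 896 ± 372 in NBC and 614 ± 126 in placebo mice (SD, n = 4 each).

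The lymphocyte sum split the NBC mice in the same way, with 10409.3 and 7003.8 in mice 5 and 9 and 895.9 and 707.3 in mice 11 and 13. In placebo mice it was 6521.2, 5133.5, 3898.8 and 4829.4 in mice 6, 8, 10 and 14, where mouse 6 also had the highest Cish signal. Its part in the Cish values was not tested. The Cish log2 difference was 0.26 without NBC mouse 5 and 0.29 without NBC mouse 9, each over 1.5 times smaller than with all mice. It was larger, at 0.61 and 0.65, without NBC mouse 11 and without NBC mouse 13. With any 1 mouse left out it ranged between 0.26 and 0.65.

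Socs1, which suppresses interferon gamma signalling, was read by 1450446_a_at alone and was dim. The signals were 141.5, 48.9, 168.5 and 115.3 in NBC mice 5, 9, 11 and 13, against 176.2, 40.2, 15.9 and 55.2 in placebo mice 6, 8, 10 and 14. The highest and the lowest value both belonged to placebo mice, so the groups overlapped. The values lay below the filter. In the alternative fit without a filter, limma's adjusted p was 0.923.

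Socs4 and Socs5, the pair that has been linked to epidermal growth factor receptor signalling, differed little. The brightest Socs4 probe set, 1455142_at, read 3379.9, 3011.3, 3374.4 and 3158.2 in NBC mice, against 3308.1, 3528.8, 3618.4 and 3751.9 in placebo mice. Placebo mouse 6 lay within the NBC range and the other placebo mice above it, for a log2 difference of -0.14 (SE 0.105; limma adjusted p = 0.841). The other 2 tested Socs4 probe sets differed by -0.20 (1421273_at, SE 0.245) and 0.16 (1421275_s_at, SE 0.172), and the dim 1421274_at ranged from 129.9 to 252.8 in NBC and from 107.4 to 199.3 in placebo mice.

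For Socs5, 1423350_at read 3743.7, 2670.0, 3152.9 and 2688.9 in NBC mice, against 2481.3, 2781.5, 2214.5 and 3641.4 in placebo mice. The highest NBC and the highest placebo mouse, 5 and 14, lay close together, and the log2 difference was 0.15 (SE 0.182; limma adjusted p = 0.896). The other probe set, 1423349_at, gave -0.14 (SE 0.206) and ordered the NBC mice the opposite way, with 1885.1 and 1501.0 in mice 9 and 13 and 999.6 and 1099.7 in mice 5 and 11.

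Socs6 and Socs7 have been reported to bind insulin receptor substrates. Socs6 probe set 1435492_at read 1594.4, 1532.2, 1570.4 and 1224.8 in NBC mice, against 1452.8, 1432.1, 1230.7 and 1300.4 in placebo mice. NBC mice 5, 9 and 11 lay above the placebo range and NBC mouse 13 below it. Mouse 13 was also the lowest NBC mouse on 1449109_at and 1418507_s_at of Socs2, within the placebo range on the first and below it on the second. The log2 difference was 0.12 (SE 0.128; limma adjusted p = 0.885). The other tested Socs6 probe set, 1450129_a_at, differed by -0.061 (SE 0.229), and the dim 1452764_at ranged from 188.6 to 439.6 in NBC and from 152.0 to 279.4 in placebo mice.

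Among the 4 Socs7 probe sets, 1434834_at read 1185.2, 1072.1, 1287.1 and 1196.5 in NBC mice 5, 9, 11 and 13, against 529.9, 1049.2, 950.1 and 1064.9 in placebo mice 6, 8, 10 and 14. All NBC mice lay above all placebo mice, by a margin of a few units between NBC mouse 9 and placebo mouse 14. The log2 difference was 0.44 (SE 0.215; limma adjusted p = 0.780), and 0.21 without placebo mouse 6, whose signal was far below the rest. The brightest Socs7 probe set, 1455402_at, ranged from 1881.9 to 2331.2 in NBC and from 1847.0 to 2274.8 in placebo mice, a log2 difference of 0.064 (SE 0.128). Probe set 1420766_at gave -0.41 (SE 0.321), with NBC mouse 5 at 127.2 and the other mice at 286.0 or higher, and -0.062 without mouse 5. The dim 1438492_at ranged from 46.0 to 395.0 in NBC and from 55.4 to 263.6 in placebo mice.

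**Figure D4:**
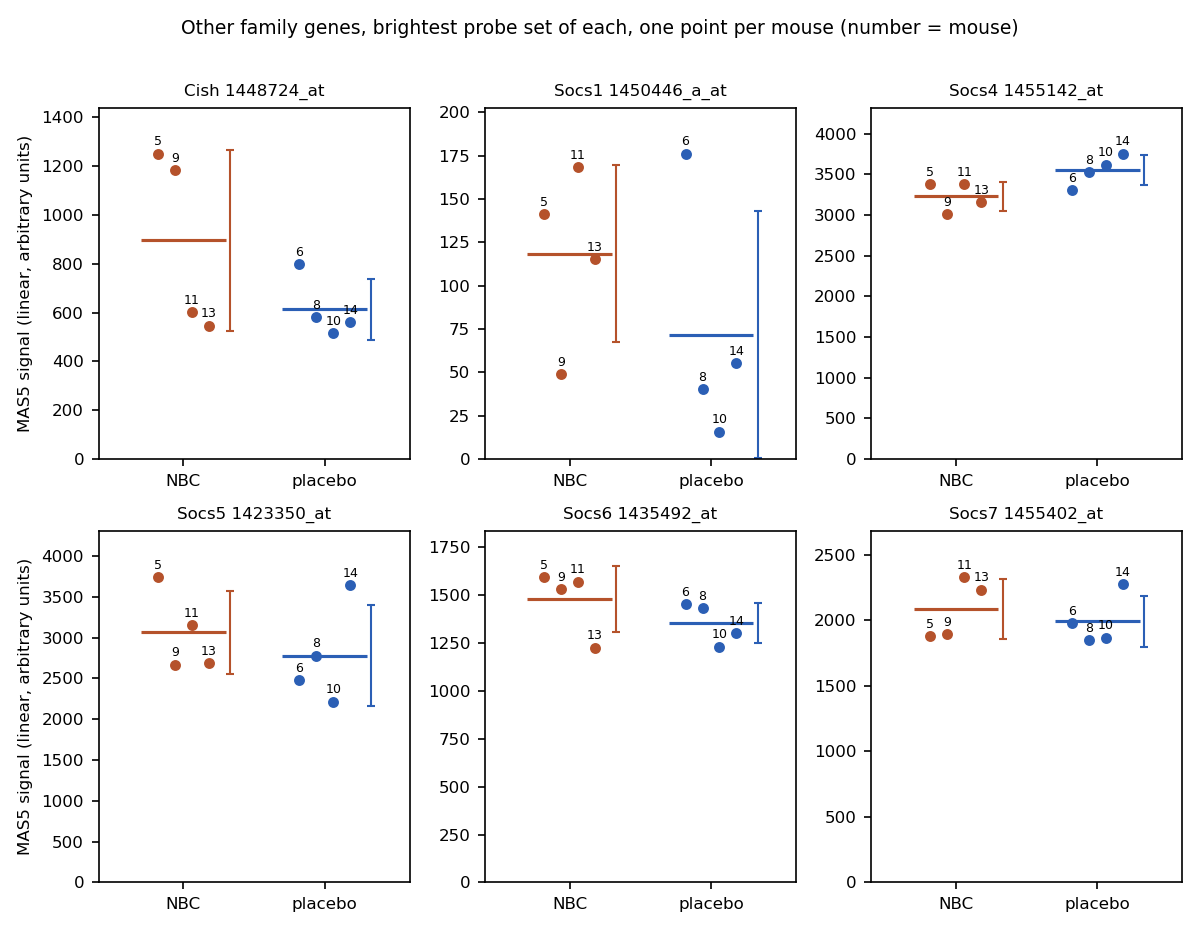
MAS5 signal (linear) of the brightest probe set of Cish, Socs1, Socs4, Socs5, Socs6 and Socs7 in each NBC mouse (left) and placebo mouse (right), numbered by mouse, with group means as lines and SD as bars. The groups overlap on all 6, with Cish at 1251.4 and 1183.0 in NBC mice 5 and 9.

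Within the NBC group the order of the mice differed between probe sets. On 11 of the 24 probe sets mice 5 and 11 both read higher than mice 9 and 13, among them all 3 of Socs3, the 1 of Socs1, 1418507_s_at and 1449109_at of Socs2, 1455142_at of Socs4, 1423350_at of Socs5 and 1435492_at of Socs6. On 5 the order was the opposite, with mice 9 and 13 both higher: 1423349_at of Socs5, 1450129_a_at and the dim 1452764_at of Socs6, and 1420766_at and the dim 1438492_at of Socs7. The share of all probe sets with either order was not counted, so these counts describe the 24 only and do not set the family apart. Mice 5 and 11 had the highest Gapdh 3′ to 5′ ratios (1.47 and 1.28, against 0.844 and 1.11 in mice 9 and 13). Its part in these values was not tested.

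The genes most like each member were those with the highest Pearson r over the log2 signals of the 8 arrays among 11662 genes, each read by its brightest tested probe set. With 8 arrays, high values arise readily among so many genes, so they are given as a description. For Socs3 these were Snf8 (r = 0.956), Pi16 (0.930) and Casp4 (0.920), and for Cish they were Skil (0.966), 9530057J20Rik (0.937) and Cytip (0.932). Socs2 was most like C1qtnf1 (0.976), Dtx3 (0.965) and Pawr (0.964), and Socs4 most like Capns1 (0.963), Xkr8 (0.947) and Lonp1 (0.922). Erp29 (0.988), St3gal6 (0.970) and Stx1a (0.949) led for Socs5. Fggy (0.964), Mrps9 (0.946) and Trim12a (0.935) led for Socs6, and Bag3 (0.966), Tle6 (0.923) and Sf3a1 (0.898) for Socs7. No other family member was among them.

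The rest of the pathway was read from 8 lists of 89 genes, of which 69 had a tested probe set. None of the 69 passed after adjustment in limma (smallest adjusted p = 0.716). Before adjustment, limma had 5 higher and 1 lower in NBC at a p under 0.05, with 5.44% of all 11662 genes called at that level (2.73% higher and 2.71% lower). Without overlap between the groups there were 6 higher and 2 lower, against 3.93% of all genes (1.7% higher and 2.23% lower). Of the 69 genes 41 lay above 0, as did 48.5% of all genes, and the median log2 difference was 0.0528 over the 69 and -0.00636 over all genes. The same shares of all genes apply to the single lists below, some of which have genes in common.

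Ligands were mostly dim: 12 of 19 lay below the filter, including Il6, and of the 5 tested none passed at an unadjusted p under 0.05. The gp130 ligands Ctf1 and Clcf1 differed by -0.42 (SE 0.207) and 0.47 (SE 0.235) on the log2 scale, and the lymphoid growth factor Il7 by -0.20 (SE 0.249). Of 20 tested receptors, 13 lay above 0 (median log2 difference 0.101) and 1 was called at an unadjusted p under 0.05. That was Csf2rb, the common beta chain of the interleukin 3, interleukin 5 and granulocyte-macrophage colony-stimulating factor receptors. It read 5278.7, 4257.7, 4637.1 and 4952.9 in NBC mice 5, 9, 11 and 13, against 3764.0, 3553.3, 3129.2 and 3666.1 in placebo mice 6, 8, 10 and 14. The groups did not overlap, at a log2 difference of 0.43 (SE 0.119; limma adjusted p = 0.716), while its other tested probe set gave 0.10 (SE 0.200). The erythropoietin receptor Epor differed by 0.37 (SE 0.173) and the oncostatin M receptor Osmr by 0.27 (SE 0.142), both with overlap.

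The gp130 chain Il6st, through which Socs3 is induced and which it inhibits, differed by 0.19 (SE 0.113) on its brightest probe set, by 0.48 (SE 0.157, no overlap) on 1437303_at and by -0.48 (SE 0.457) on 1460295_s_at. Other receptors that Socs proteins restrain showed log2 differences of 0.25 (Il6ra, SE 0.194), 0.098 (Lepr, SE 0.357), 0.055 (Ghr, SE 0.114) and -0.22 (Ifngr1, SE 0.120). Of the kinases and STATs, 3 of 9 tested lay above 0, with a median log2 difference of -0.0492. The smallest p belonged to Stat2, a partner in interferon signalling, at -0.53 (SE 0.388), and it overlapped. Jak3, the kinase of lymphoid cytokine receptors, gave -0.18 (SE 0.173). The others named were Jak1 (-0.16, SE 0.146), Jak2 (0.082, SE 0.153), Stat3 (0.12, SE 0.178), Stat5a (-0.015, SE 0.165) and Stat5b (-0.12, SE 0.119). Other tested probe sets of Il6ra, Ghr, Osmr, Jak1, Jak2, Stat2 and Stat3 included at least 1 with the opposite sign, each of those with overlap between the groups. The other Stat5a probe set, 1450259_a_at, gave -0.57 (SE 0.386). The SOCS box partners, which build the ubiquitin ligase, had 1 of 5 tested above 0. Cul5 gave -0.12 (SE 0.154), Rnf7 -0.074 (SE 0.121) and Cul2 -0.060 (SE 0.103), while Cul5 probe set 1456102_a_at gave 0.21 (SE 0.355).

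Other inhibitors of the pathway went both ways, with 5 of 9 above 0. The JAK phosphatase Ptpn2 read 7749.6, 6337.1, 7132.9 and 6030.1 in NBC mice 5, 9, 11 and 13, against 5692.7, 5326.1, 5376.1 and 5202.6 in placebo mice 6, 8, 10 and 14, without overlap (log2 difference 0.33, SE 0.118; limma adjusted p = 0.767). Its other tested probe set gave 0.13 (SE 0.129). Ptpn1, a phosphatase of the insulin receptor and of JAKs, differed by 0.30 (SE 0.138) with overlap, and by -0.0016 (SE 0.193) on 1438670_at. Ptpn11, a phosphatase that binds the same site of gp130 as Socs3, was lower without overlap at 21145 ± 1245 in NBC and 24457 ± 1256 in placebo mice (SD, n = 4 each; log2 difference -0.21, SE 0.106). Its probe set 1421196_at gave -0.62 (SE 0.127; limma adjusted p = 0.651) and 1427699_a_at gave -0.053 (SE 0.267).

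Of the 16 genes listed as induced through STAT3, all tested, 14 lay above 0, as did 48.5% of all genes. Their median log2 difference was 0.167. At an unadjusted p under 0.05 in limma, 2 were called, both higher in NBC, where 5.44% of all genes were called (2.73% higher). Bcl3, a nuclear partner of NF-kappa-B, read 918.8, 681.1, 756.2 and 583.5 in NBC mice 5, 9, 11 and 13, against 512.0, 516.4, 328.8 and 472.3 in placebo mice 6, 8, 10 and 14. The groups did not overlap (log2 difference 0.66, SE 0.186; limma adjusted p = 0.718). The acute-phase gene Saa3 read 5379.0, 2834.3, 4317.3 and 1859.3 in NBC mice, against 1362.6, 1585.3, 1812.6 and 1062.4 in placebo mice, also without overlap (log2 difference 1.21, SE 0.319; limma adjusted p = 0.716). As on all 3 Socs3 probe sets, NBC mouse 5 was the highest and NBC mouse 13 below mouse 11 for both genes. Among the other named genes of this list, Osmr had that order too, but Stat3 and Pim1 did not. NBC mouse 13 lay above mouse 11 for Stat3 and was the highest NBC mouse for Pim1. The kinase gene Pim1, listed under STAT3 and STAT5, differed by 0.27 (SE 0.121) without overlap, but by -0.090 (SE 0.183) on 1423006_at.

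Genes controlled through STAT5, the factor that induces Cish and Socs2, had 5 of 6 tested above 0 (median log2 difference 0.234). The list was not divided into induced and repressed genes. Of all genes, 48.5% lay above 0. Igf1, the growth hormone target, read 11807.6, 13458.5, 11973.2 and 11982.1 in NBC mice 5, 9, 11 and 13, against 5422.0, 7603.2, 11307.2 and 9729.7 in placebo mice 6, 8, 10 and 14. The NBC mice lay close together above a wide placebo range (log2 difference 0.58, SE 0.214; limma adjusted p = 0.775). Its other 3 tested probe sets gave 0.22 to 0.41, each with overlap. The cell cycle inhibitor gene Cdkn2c gave -0.13 (SE 0.111).

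Among the insulin signalling proteins that SOCS proteins bind, Irs3, a substrate expressed in rodent fat, read 2538.7, 1891.4, 2330.6 and 2046.0 in NBC mice 5, 9, 11 and 13, against 2754.5, 3327.3, 2552.0 and 3143.5 in placebo mice 6, 8, 10 and 14. The groups did not overlap, although NBC mouse 5 lay close to placebo mouse 10 (log2 difference -0.42, SE 0.141; limma adjusted p = 0.730). Irs1 and Irs2 differed by -0.14 (SE 0.126) and 0.59 (SE 0.552), with overlap.

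**Figure D5:**
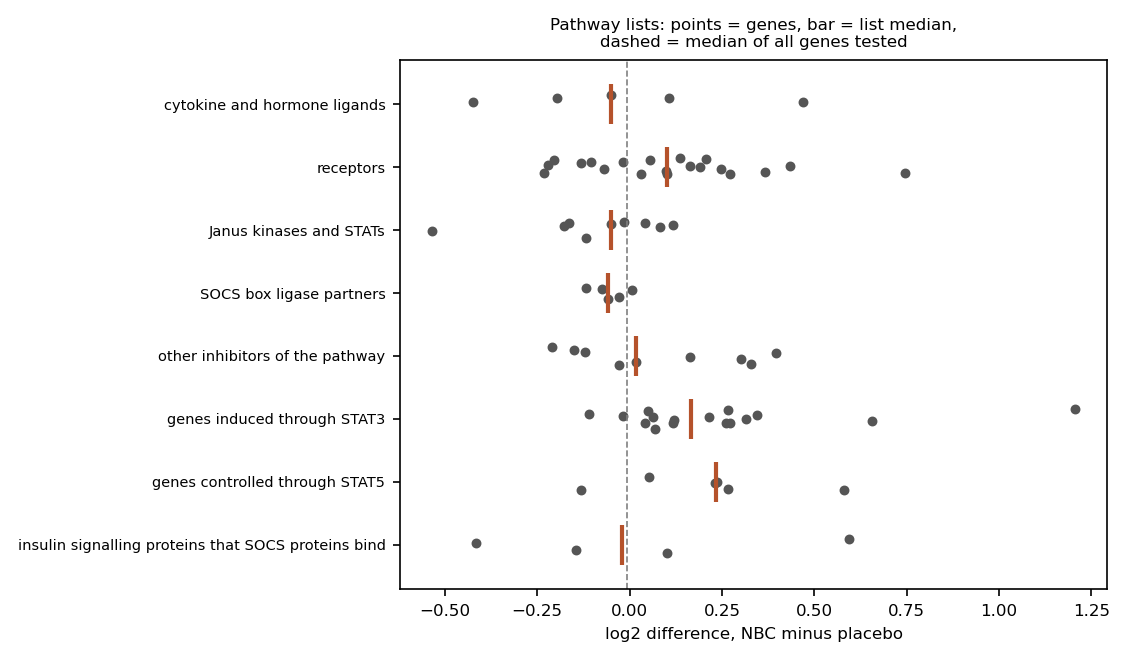
Log2 difference (NBC minus placebo) of each tested gene of the 8 pathway lists, with the median of each list as a bar and the median of all 11662 genes (-0.00636) as a dashed line. The medians run from -0.0597 for the SOCS box partners to 0.234 for the genes controlled through STAT5, and Saa3 lies farthest out at 1.21.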

How the data were processed

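Each deposited value is a linear MAS5 signal intensity of a probe set; the submitters' processing notes name MAS5 without a version. Because MAS5 weighs mismatch against perfect-match probes, dim signals are noisy. Signals were used as deposited. Groups and mouse numbers came from the sample titles. The platform annotation given for the series gave a single gene to 34945 probe sets, more than 1 gene to 932 and no gene to 9160, and Entrez identifiers matched RefSeq symbols for all 8 family genes. Control probe sets (64) were left out. Signals were transformed as log2(signal + 26.5), the 10th percentile, and 22519 probe sets were fitted with limma 3.58.1 in R 4.3.3 (lmFit and eBayes, no covariate, Benjamini-Hochberg adjustment over all of them, threshold 0.05). Standard errors are the moderated ones and SDs are of linear signals. A listed gene was read by its brightest tested probe set, which stood for 11662 genes. The labels describe mice but name no cage, scan or batch, so none could be entered.

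All members are reported. From each pathway list up to 3 genes of smallest p were named, plus Jak1, Jak2, Stat3, Stat5a, Stat5b, Il6st, Il6ra, Lepr, Ghr, Ifngr1, Irs1 and Irs2, and for each member the 3 most similar genes. One pathway list is not reported here. Members, lists and alternatives were chosen with earlier results of these data known. Alternatives varied the pseudocount, the filter, the normalization, the prior, the mice included and the probe set that stands for a gene.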

Additional observations from a re-analysis of the deposited data

Results flagged for a closer look

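Among 112 groups of 4 mice examined for the members and the named pathway genes, 8 held 1 mouse far from the other 3 (its gap to the nearest, as a share of the group's range on the log2 scale, was above Dixon's critical value; that share is given as the ratio), 4 of them in the 48 groups of family probe sets. Chance flags about 1 in 20 groups. Placebo mouse 10 stood above the other placebo mice on 1456212_x_at of Socs3 (1245.5 against 916.7 to 946.6, ratio 0.896) and on 1421274_at of Socs4 (199.3 against 107.4 to 117.3, ratio 0.863). NBC mouse 13 stood below the other NBC mice on 1435492_at of Socs6 (1224.8 against 1532.2 to 1594.4, ratio 0.849). Placebo mouse 6 stood below the other placebo mice on 1434834_at of Socs7 (529.9 against 950.1 to 1064.9, ratio 0.835), where the groups did not overlap. It stood above them on Il6ra (1041.9 against 806.9 to 840.8, ratio 0.839). Ifngr1 was higher in NBC mouse 11 (11421.9 against 10612.1 to 10664.9, ratio 0.933), Igf1 in NBC mouse 9 (13458.5 against 11807.6 to 11982.1, ratio 0.888) and Irs2 in NBC mouse 5 (1085.4 against 347.5 to 420.0, ratio 0.837), each set against the other 3 NBC mice.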

How the results depend on the processing

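No paired analysis was possible because the groups share no mouse number. No family probe set passed the adjusted threshold under any alternative. The count of all probe sets past it was 0 in every alternative but 1: with 1 mouse left out it ranged from 0 to 19, the 19 without NBC mouse 9. The count of family probe sets at an unadjusted p under 0.05 in limma was 4 and ranged from 2 (without NBC mouse 5, NBC mouse 11 or placebo mouse 14) to 6 (without NBC mouse 13) with 1 mouse left out. It was 3 of 24 with no filter and 3 of 12 with the filter at the 60th percentile. With a pseudocount of 1 or 106, quantile normalization or a mean-dependent robust prior it was 4 of 17. The table-wide count at that level moved as well. It was 1400 of 22519 in the main fit, 2401 of 45037 unfiltered and 1243 of 18015 under the 60th percentile filter. Its extremes among single-mouse omissions were 1039 (placebo mouse 8 dropped) and 2556 (NBC mouse 9 dropped), each of 22519. The family count was 3 in both of these fits. It was 2 where 1171 to 1273 were called in all, and 6 where 1469 were. The sign turned with 1 mouse left out for 3 tested probe sets: 1418507_s_at of Socs2 (-0.0825 to 0.304), 1421273_at of Socs4 (-0.352 to 0.00976) and 1450129_a_at of Socs6 (-0.240 to 0.0460). It also turned for Socs2 when the mean of its tested probe sets replaced the brightest one (-0.0129). The Socs3 differences stayed above 0 in all alternatives, between 0.778 and 1.62 for 1416576_at, 0.619 and 0.927 for 1455899_x_at, and 0.382 and 0.725 for 1456212_x_at. Dim signals limit what can be said of Socs1.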
